A study of Mus musculus with 34 samples.

Results

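Granule cells and mossy cells are the 2 kinds of glutamatergic neuron of the dentate gyrus, and their RNA was compared in mice given vehicle. The comparison used 10 of the 34 libraries of the study: 4 labelled as granule cells and 6 labelled as mossy cells, chosen by their labels alone. Every group carries the same labels otherwise: mouse hippocampus, genotype WT and vehicle treatment. The libraries from fluoxetine-treated mice were not used, and 6 vehicle libraries labelled hippocampus are given only as context, without a test. Per the labels, RNA was obtained by translating ribosome affinity purification (TRAP), in which ribosomes are pulled down with the RNA they carry. The labels name no ribosome tag, no driver of its expression, no strain, age or dose, and do not say how many animals stand behind a library. The p-values below therefore measure the spread between these libraries, which may be technical.

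Granule cells are the principal neurons of the dentate gyrus. They are small, densely packed and sparsely active, they are born throughout life in rodents, and their mossy fibres carry glutamate, zinc and peptides to the hilus and to CA3. Mossy cells lie in the hilus, receive mossy fibre input and send axons back to granule cells of both hemispheres and to local interneurons. In rodents, Prox1 and Calb1 are used to recognise granule cells, and Calb2 and Drd2 to recognise mossy cells.

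Library totals were 14.1, 27.9, 40.0 and 21.6 M counts in granule cells and 26.1 to 40.0 M in mossy cells. Levels are CPM, the count of a gene divided by the TMM-scaled library total in M, and are compared between libraries, not between genes. Correlations of log2 CPM were 0.936 to 0.978 among granule-cell libraries, 0.986 to 0.993 among mossy-cell libraries and 0.877 to 0.918 between the cell types. The ribosomal RNA gene Rn45s took 0.94%, 3.59%, 5.42% and 1.13% of the counts in granule cells and 15.3% to 21.1% in mossy cells, so granule-cell libraries 1 and 4 stood apart from libraries 2 and 3. Library names in the labels number the granule-cell libraries in a set of their own, whereas mossy-cell and hippocampus libraries share another. Cell type and library set cannot be told apart in this comparison. Fold changes also moved with transcript composition: over bins of equal size, from the lowest to the highest transcript GC content, the median log2 fold change, granule over mossy, was 0.453, 0.261, 0.0573, -0.279 and -0.59. Values corrected for GC content and length, called corrected from here on, are therefore given where they change a call or move a fold change by more than 1.5 times.

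The 4 marker genes separated the cell types without overlap. Prox1, a homeobox transcription factor that specifies and maintains granule cell identity, lies at chr1:190118035-190170714 on the minus strand (GRCm38, GENCODE M21). It had 287, 310, 362 and 312 CPM in the granule-cell libraries. In mossy cells the lowest, median and highest values were 25.1, 31.1 and 33.9 CPM. All granule-cell libraries thus lay far above all mossy-cell libraries, and the log2 fold change was 3.39 (SE 0.12, edgeR adjusted p = 3.98e-10). Calb1, which encodes the calcium buffer calbindin and lies at chr4:15881264-15908064 on the plus strand, had 329, 236, 268 and 321 CPM in granule cells. In mossy cells it ranged from 114 to 144 CPM with a median of 121. The groups did not overlap (log2 fold change 1.22, SE 0.12, adjusted p = 1.57e-06), although the gene did not pass the test for a change beyond 2-fold (adjusted p = 0.0784), and its log2 fold change was 0.57 after correction for GC content and length.

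Calb2, which encodes the calcium buffer calretinin, lies at chr8:110137502-110168210 on the minus strand. It had 11.8, 14.9, 13.6 and 15.9 CPM in granule cells. In mossy cells the lowest, median and highest values were 246, 332 and 375 CPM. Every granule-cell library was at least an order of magnitude below every mossy-cell library, and the log2 fold change was -4.51 (SE 0.16, adjusted p = 3.98e-10). Drd2, the dopamine D2 receptor, lies at chr9:49340627-49408177 on the plus strand and had 1.62, 0.378, 1.66 and 0.936 CPM in granule cells. In mossy cells it ranged from 25.4 to 40.5 CPM with a median of 35.4 (log2 fold change -4.92, SE 0.35, adjusted p = 1.14e-07). In hippocampus libraries the means were 195 CPM for Prox1, 136 for Calb1, 14.5 for Calb2 and 4.38 for Drd2. Relative to hippocampus, Prox1 was thus higher in granule cells and lower in mossy cells, and Calb2 and Drd2 were higher in mossy cells.

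**Figure D1:**
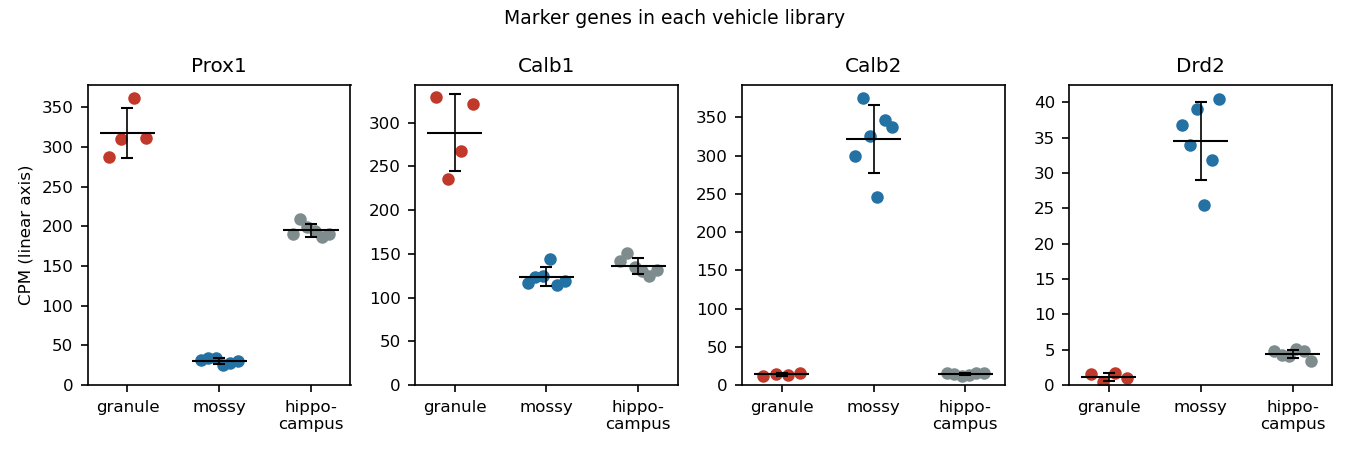
CPM (linear axis, from 0) of Prox1, Calb1, Calb2 and Drd2 in each vehicle library of granule cells (4), mossy cells (6) and hippocampus (6). Points are libraries, and bars are the mean and SD. Prox1 lies between 287 and 362 CPM in granule cells and at or below 33.9 CPM in mossy cells, and Calb2 and Drd2 show the opposite order.

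For the marker genes Calb1 and Calb2 the promoter set used held no window. Promoter windows of the marker genes Prox1 and Drd2 and of the peptide genes Sst and Npy are shown. Each holds 300 bases, 250 before and 50 after a transcription start, on the strand of the gene, from RefSeq (GRCm38.p6). Capitals mark matches, on either strand, to TGACGTCA (the cAMP response element), to TATAAA or to CCAAT. The windows lie at chr1:190170778-190171077 for Prox1, the first of its 2 listed starts, at chr9:49340153-49340452 for Drd2, at chr16:23890795-23891094 for Sst and at chr6:49822460-49822759 for Npy. Sst and Npy, which encode somatostatin and neuropeptide Y, were among the peptide genes lowest in granule cells relative to mossy cells.
Prox1: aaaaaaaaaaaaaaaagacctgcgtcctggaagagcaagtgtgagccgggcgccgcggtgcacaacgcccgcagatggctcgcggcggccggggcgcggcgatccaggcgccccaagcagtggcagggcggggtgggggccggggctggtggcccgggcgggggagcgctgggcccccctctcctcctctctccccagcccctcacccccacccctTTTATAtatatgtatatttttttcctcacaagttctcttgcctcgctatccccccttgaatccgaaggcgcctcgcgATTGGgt
Drd2: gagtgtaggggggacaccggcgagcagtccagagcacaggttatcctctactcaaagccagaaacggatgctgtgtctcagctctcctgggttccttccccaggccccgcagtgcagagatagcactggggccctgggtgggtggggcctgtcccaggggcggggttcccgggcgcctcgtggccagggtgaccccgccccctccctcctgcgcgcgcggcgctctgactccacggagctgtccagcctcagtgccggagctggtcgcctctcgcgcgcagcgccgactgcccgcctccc
Sst: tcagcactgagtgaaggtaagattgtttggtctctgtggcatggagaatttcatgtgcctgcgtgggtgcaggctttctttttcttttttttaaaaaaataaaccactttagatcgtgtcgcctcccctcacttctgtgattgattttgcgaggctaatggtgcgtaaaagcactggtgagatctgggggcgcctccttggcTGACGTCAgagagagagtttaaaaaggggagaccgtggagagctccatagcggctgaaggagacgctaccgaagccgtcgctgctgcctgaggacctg
Npy: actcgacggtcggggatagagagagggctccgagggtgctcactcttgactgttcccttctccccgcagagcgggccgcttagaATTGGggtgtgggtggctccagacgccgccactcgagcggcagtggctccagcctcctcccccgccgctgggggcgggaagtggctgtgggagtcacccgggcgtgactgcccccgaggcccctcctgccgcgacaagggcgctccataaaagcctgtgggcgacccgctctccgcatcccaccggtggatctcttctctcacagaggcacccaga

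The Sst window held the cAMP response element at position -48 from the start, and the Drd2 window held none of the 3 motifs. The Prox1 window held TATAAA at -34 and CCAAT at 44, and the Npy window held CCAAT at -166, each on the opposite strand. Of all 32851 promoter windows, 1.79% held TGACGTCA, 13.6% held TATAAA and 37.4% held CCAAT. Among genes past 2-fold, 731 higher and 615 lower genes had a window, and TGACGTCA stood in 2.05% of the higher and 2.44% of the lower, against 3.19% of 10769 tested genes. Median promoter GC content was 61.7% for the higher genes, 60.7% for the lower and 61% for all tested. A match is a description of the letters and not a site shown to be used.

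All 12 granule cell markers of a longer list were higher in granule cells, 9 of them past 2-fold, against 26% of all genes tested that were higher and 6.89% that were higher past 2-fold. Their summed level was 1920 to 2260 CPM in granule cells and 397 to 440 CPM in mossy cells, against 922 to 1010 CPM in hippocampus. Rfx3, a transcription factor of the regulatory factor X family, had 437, 558, 688 and 471 CPM in granule cells and 54.5 to 78.0 CPM in mossy cells (log2 fold change 3.09, SE 0.14, adjusted p = 2.35e-09). Tdo2, which encodes the tryptophan-degrading enzyme tryptophan 2,3-dioxygenase, averaged 16.1 ± 4.28 CPM in granule cells and 1.67 ± 0.50 CPM in mossy cells (SD, n = 4 and 6; edgeR adjusted p = 6.93e-07). The synaptic organiser C1ql2 averaged 60.1 ± 18.6 CPM in granule cells and 7.77 ± 2.85 CPM in mossy cells (log2 fold change 2.95, and 3.95 corrected), and the desmosome protein gene Dsp 97.1 ± 44.1 and 15.4 ± 5.96 CPM. The cation channel gene Trpc6 had the smallest difference of the list, with a log2 fold change of 1.16. In bulk libraries of this kind, fewer cells of a type and less RNA per cell cannot be told apart.

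Of the 7 tested markers of immature granule neurons, 3 were higher in granule cells, or 2 corrected, against 26% of all genes tested. In the other direction 1 was lower, or 2 without granule-cell library 2. Neurod1, a differentiation factor that mature granule cells also carry, averaged 60.6 ± 7.72 CPM in granule cells and 14.3 ± 1.32 CPM in mossy cells (log2 fold change 2.08). It was the only member past 2-fold, against 6.89% of all genes tested that were higher past 2-fold. Of the 12 mossy cell markers, 7 were lower in granule cells, all past 2-fold, 1 was higher and 4 did not pass. Of all genes tested, 24.3% were lower and 5.8% were lower past 2-fold. The summed level of the mossy cell list was 179 to 362 CPM in granule cells and 512 to 646 CPM in mossy cells, against 274 to 299 CPM in hippocampus. Nmb, which encodes the peptide neuromedin B, had 0.39, 0.82, 0.185 and 0.529 CPM in granule cells, and in mossy cells a lowest, median and highest value of 12.03, 26.0 and 31.8 CPM (log2 fold change -5.63, SE 0.42, adjusted p = 1.72e-07), and -4.89 corrected. Gal, which encodes galanin, had no counts in 3 granule-cell libraries and 0.231 CPM in library 3, against 4.46 to 7.97 CPM in mossy cells. Its fitted fold depends on that library and is not given. Ephb6, an Eph-family receptor without kinase activity, averaged 7.21 ± 2.73 CPM in granule cells and 28.5 ± 4.53 CPM in mossy cells (log2 fold change -1.97, and -1.37 corrected). Ociad2 went the other way, with 257, 96.4, 96.2 and 212 CPM in granule cells and 89.1 to 110 CPM in mossy cells (log2 fold change 0.70, adjusted p = 0.0252). The groups overlapped, and the call was lost when granule-cell library 1, granule-cell library 4 or mossy-cell library 1 was left out, with log2 fold change -0.09 without granule-cell libraries 1 and 4. Ociad2 was also not called after correction (0.53, edgeR adjusted p = 0.058) or with the replicate number as a block (edgeR adjusted p = 0.112). With limma-voom and quality weights it was not called either (adjusted p = 0.41).

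Interneuron markers were far lower in granule cells than in mossy cells: 17 of 19 were lower, 13 of them past 2-fold, and 1, Vip, was higher. The shares over all genes tested were 24.3%, 5.8% and 26%. The summed level of the list was 681 to 882 CPM in granule cells and 3840 to 5150 CPM in mossy cells, against 732 to 787 CPM in hippocampus. The mossy-cell libraries thus stood above the hippocampus libraries, by a wider margin than for the mossy cell list. Gad2, a glutamate decarboxylase that makes GABA, had 182, 151, 182 and 247 CPM in granule cells and a lowest, median and highest value of 866, 1044 and 1265 CPM in mossy cells (log2 fold change -2.47, SE 0.16, adjusted p = 6.25e-08). Gad1, the other decarboxylase, averaged 155 ± 10.6 CPM in granule cells and 363 ± 46.6 CPM in mossy cells (log2 fold change -1.23), with 91.8 CPM in hippocampus. Slc32a1, the vesicular GABA transporter, had 3.12, 17.0, 16.6 and 18.9 CPM in granule cells and 102 to 126 CPM in mossy cells (log2 fold change -2.98, and -2.20 corrected). Lhx6, a transcription factor of interneurons born in the medial ganglionic eminence, averaged 12.3 ± 1.70 CPM in granule cells and 98.9 ± 9.94 CPM in mossy cells. Reln, which encodes the secreted protein reelin, averaged 29.5 ± 3.38 and 265 ± 40.6 CPM (log2 fold change -3.17). No marker of any cell type list was at 0 in every library of a group. The part of these markers in the lower granule-cell levels of peptide, channel and vesicle genes was not tested.

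Glial and vascular markers went the other way. Of the markers tested, 7 of 9 for microglia, 9 of 12 for astrocytes, 11 of 12 for oligodendrocytes and 8 of 12 for endothelial and mural cells were higher in granule cells, and none was lower. The shares over all genes tested were 26% higher and 24.3% lower. After correction, 10 astrocyte, 12 oligodendrocyte and 6 endothelial and mural markers were higher. Summed levels in granule cells, mossy cells and hippocampus were 45.5 to 75.6, 9.24 to 16.3 and 39.9 to 49.4 CPM for microglia. They were 1400 to 1670, 505 to 722 and 2010 to 2550 CPM for astrocytes and 654 to 747, 119 to 199 and 931 to 1280 CPM for oligodendrocytes. Mbp, myelin basic protein, had 245, 295, 197 and 227 CPM in granule cells and 41.2 to 59.1 CPM in mossy cells (log2 fold change 2.26, SE 0.14, adjusted p = 3.12e-08). The astrocyte glutamate transporter gene Slc1a3 averaged 41.0 ± 6.81 CPM in granule cells and 4.94 ± 2.06 CPM in mossy cells, and Gfap, an astrocyte filament protein, 38.7 ± 14.01 and 8.001 ± 4.42 CPM. P2ry12, a purine receptor of microglia, had 4.16 to 9.52 CPM in granule cells and at most 0.552 CPM in mossy cells (log2 fold change 4.26), and Cx3cr1, the fractalkine receptor, averaged 8.48 ± 4.57 and 0.924 ± 0.633 CPM. Part of what is higher in granule cells below is known from glia, and the part of these cells in each result was not tested.

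The endothelial and mural list rested on granule-cell library 3, whose sum was 203 CPM, the highest of a range of 11.9 to 203 CPM in granule cells, against 14.9 to 19.0 CPM in mossy cells. Flt1, a receptor for vascular endothelial growth factor, had 1.88, 7.88, 44.1 and 0.814 CPM in granule cells and at most 1.04 CPM in mossy cells. Slco1a4, an organic anion transporter of brain capillaries, had 2.60, 6.37, 45.7 and 1.83 CPM and at most 1.13 CPM. Without granule-cell library 3, 3 of the 12 members were called higher, and the log2 fold changes were 3.21 for Flt1 and 2.56 for Slco1a4, against 5.18 and 4.55 with it. Without granule-cell libraries 2 and 3, 1 member was called higher and 3 were called lower. The choroid plexus gene Ttr, which encodes transthyretin, varied within each group, from 9.92 to 506 CPM in granule cells and from 0.04 to 248.8 CPM in mossy cells, and was not called (adjusted p = 0.52).

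Markers of CA1, CA2 and CA3 pyramidal cells were mixed. Of 11 CA1 and CA2 markers 3 were higher and 4 lower in granule cells, and of 10 CA3 markers 2 were higher and 3 lower. The shares over all genes tested were 26% and 24.3%. Wfs1, an endoplasmic reticulum protein known from CA1, averaged 40.5 ± 5.14 CPM in granule cells and 278 ± 111 CPM in mossy cells (log2 fold change -2.78), and Fibcd1, a membrane protein that binds acetylated sugars, 25.9 ± 6.18 and 124 ± 16.8 CPM (-2.26). Pcp4, a calmodulin-binding peptide gene, had 1300, 400, 404 and 1380 CPM in granule cells and 316 to 429 CPM in mossy cells (log2 fold change 1.21, adjusted p = 0.0044). Only granule-cell libraries 1 and 4 lay above the mossy-cell range, and without them 1 CA1 or CA2 marker was called higher. The zinc finger gene St18 averaged 136 ± 26.7 CPM in granule cells and 11.4 ± 2.999 CPM in mossy cells (log2 fold change 3.58), and the secreted synaptic pentraxin gene Nptx1 494 ± 63.9 and 158 ± 7.81 CPM (1.65). These were the 2 higher CA3 markers. The 3 lower ones, not named here, reached a log2 fold change of -2.11.

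**Figure D2:**
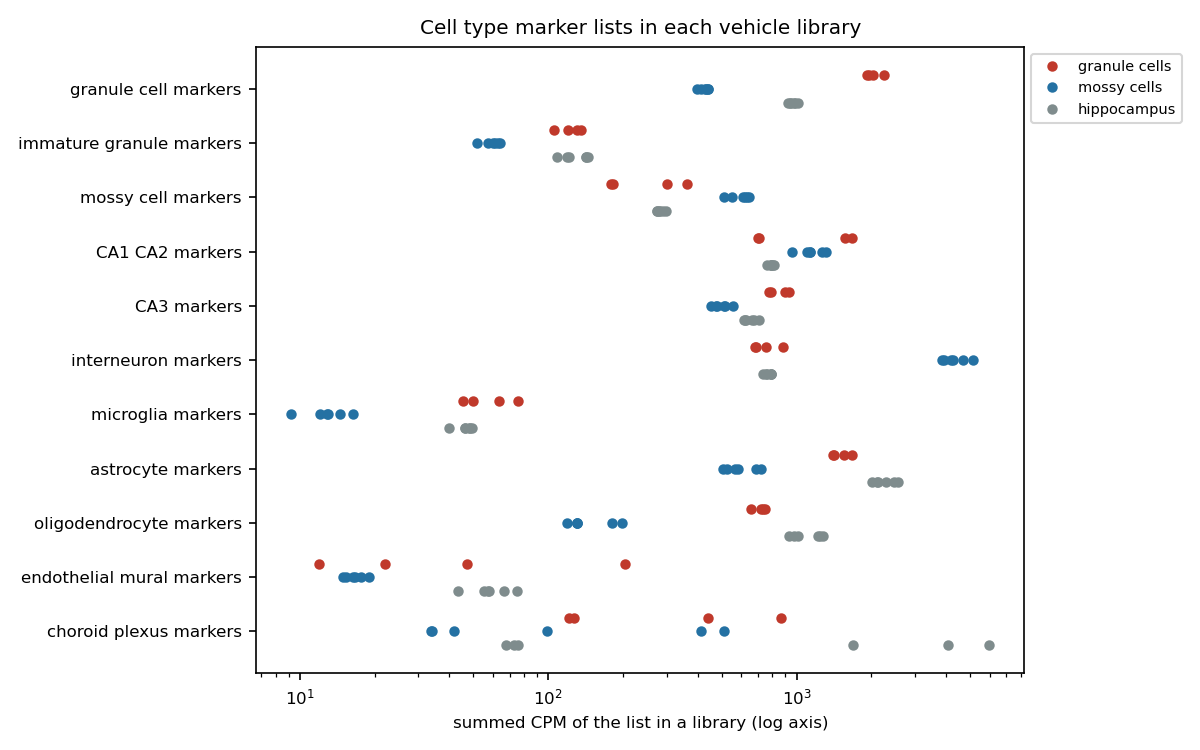
Summed CPM (log axis) of 11 cell type marker lists in each vehicle library of granule cells, mossy cells and hippocampus; each point is a library. Interneuron markers sum to 681 to 882 CPM in granule cells and 3840 to 5150 CPM in mossy cells, whereas microglia, astrocyte and oligodendrocyte markers are higher in granule cells.

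Over all 14674 genes tested, 3821 were higher and 3566 were lower in granule cells than in mossy cells at an adjusted p under 0.05, which together is 50.3% of the genes. Past 2-fold, 1011 genes were higher and 851 were lower. CPM of the groups did not overlap for 2723 genes (18.6%) in the higher direction and 3012 (20.5%) in the lower direction, together 39.1%. After correction for transcript GC content and length, 775 of the 1011 genes and 448 of the 851 genes passed in the same direction. In that fit 3654 genes were higher and 3015 lower, the background for corrected list counts. Without granule-cell libraries 1 and 4, 4286 of 15403 genes were higher and 4414 lower. Without granule-cell libraries 2 and 3, 3933 of 15169 genes were higher and 4252 lower. The median log2 fold change over all genes was 0.0319.

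Kalrn was among the 12 named genes with the largest changes in the higher direction. It encodes kalirin, a guanine nucleotide exchange factor of dendritic spines, and lies at chr16:33969073-34573532 on the minus strand. It had 16300, 16800, 21800 and 15500 CPM in granule cells, against a lowest, median and highest value of 653, 890 and 1181 CPM in mossy cells and a mean of 416 CPM in hippocampus. The granule-cell libraries thus lay more than an order of magnitude above every other library (log2 fold change 4.27, SE 0.17, adjusted p = 8.59e-10). Cdr1, at chrX:61184005-61185558 on the minus strand, had 15900, 3010, 2050 and 6250 CPM in granule cells and 73.8 to 134 CPM in mossy cells (log2 fold change 6.0, SE 0.48, adjusted p = 2.85e-07), and 5.14 without granule-cell library 1. An antisense circular RNA is transcribed from the same locus, and since the strand setting of the counting is not given in the sources used here, reads of the pair cannot be told apart. Bcor, a corepressor that binds BCL6, averaged 305 ± 88.7 CPM in granule cells and 18.01 ± 1.85 CPM in mossy cells (log2 fold change 4.08), with 13.6 CPM in hippocampus. The marker Prox1 averaged 318 CPM in granule cells and 195 CPM in hippocampus, a far smaller ratio than for Kalrn or Bcor. Why these genes stood so far above hippocampus was not tested, and cell type and library set cannot be told apart here.

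Several other genes with large differences were also higher in granule cells. The adaptor gene Plekha2 had 173, 137, 152 and 140 CPM in granule cells and 4.28 to 9.78 CPM in mossy cells (log2 fold change 4.47, SE 0.20, adjusted p = 1.82e-09). Onecut2, a cut-homeobox transcription factor, averaged 68.8 ± 9.91 and 3.71 ± 0.67 CPM, and Zfhx4, a large zinc finger homeobox factor, 85.5 ± 7.39 and 5.09 ± 0.76 CPM. Fign, which encodes the microtubule-severing protein fidgetin, rested in size on granule-cell library 1, with 101 CPM there and 13.5 to 14.5 CPM in the other granule-cell libraries, against 0.46 to 1.98 CPM in mossy cells. Its log2 fold change was 5.04 with that library and 3.69 without it. Gjc3, a connexin of oligodendrocytes, averaged 38.5 ± 11.7 CPM in granule cells and 2.43 ± 0.43 CPM in mossy cells.

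Transcription factors stood among the genes that were lowest in granule cells relative to mossy cells. Trp73, a member of the p53 family, had 0.13, 3, 1.15 and 0.773 CPM in granule cells and 44.4 to 56.5 CPM in mossy cells (log2 fold change -5.21, SE 0.46, adjusted p = 7.31e-07; -6.01 without granule-cell library 2). Ebf3, a factor of the early B cell factor family, had 0.0649 to 1.73 CPM in granule cells and 22.3 to 34.0 CPM in mossy cells (-5.16, and -5.99 without granule-cell library 2). Both are known from Cajal-Retzius cells, which also make reelin and calretinin. No list of that cell type was tested. Npas1, a factor of interneurons, averaged 2.49 ± 1.77 CPM in granule cells and 55.0 ± 10.3 CPM in mossy cells (-4.39, and -3.51 corrected), and Cux2, a cut-homeobox factor, 3.69 ± 2.69 and 55.1 ± 4.69 CPM (-3.85). Sncg, which encodes gamma-synuclein, had 0.13 to 0.60 CPM in granule cells and 9.96 to 21.4 CPM in mossy cells (-5.49, with -6.09 without granule-cell library 3 and -4.64 corrected). Rgs12, a regulator that speeds the switching off of G proteins, averaged 8.69 ± 2.49 CPM in granule cells and 159 ± 17.1 CPM in mossy cells (-4.18). In hippocampus the means were 3.26 CPM for Trp73, 1.38 for Ebf3, 4.37 for Npas1, 12.3 for Cux2, 1.91 for Sncg and 16.2 for Rgs12. All of these lay nearer to granule cells than to mossy cells.

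Malat1 and Meg3, nuclear long noncoding RNAs, were higher in granule cells. Malat1 had 1200, 1140, 479 and 1770 CPM in granule cells and 59.2 to 140 CPM in mossy cells, against a mean of 12130 CPM in hippocampus (log2 fold change 3.45, SE 0.30, adjusted p = 6.21e-07). Meg3 had 368, 193, 68.7 and 367 CPM in granule cells and 32.3 to 61.6 CPM in mossy cells, against 1067 CPM in hippocampus (log2 fold change 2.40). These RNAs carry few ribosomes, and the granule-cell levels lay between those of mossy cells and of hippocampus for both. The part of such RNA in the other results was not tested.

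**Figure D3:**
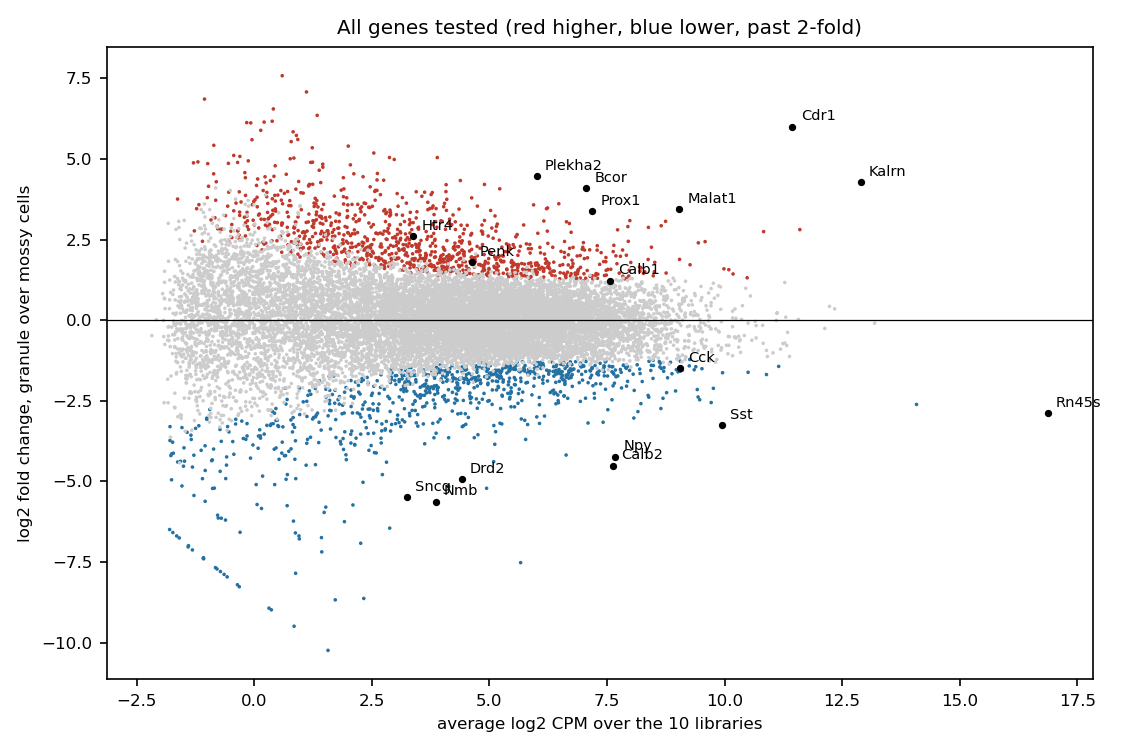
Log2 fold change, granule over mossy cells, against the average log2 CPM over the 10 libraries for the 14674 genes tested; red and blue points passed the test for a change beyond 2-fold in the higher (1011) and lower (851) direction. Cdr1, Kalrn and Prox1 lie among the higher genes, and Sst, Npy, Calb2, Drd2 and Nmb among the lower ones.

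Neuropeptide precursors were mostly lower in granule cells. Of 19 tested, 12 were lower, 8 of them past 2-fold, and 3 were higher, against 24.3% lower and 26% higher over all genes tested. The median log2 fold change was -1.49 (-0.667 after correction for GC content and length, with 9 lower and 3 higher). Sst, at chr16:23889573-23890958 on the minus strand, had 220, 108, 68.9 and 250 CPM in granule cells. In mossy cells the lowest, median and highest values were 1056, 1447 and 2363 CPM, against a mean of 66.4 CPM in hippocampus. The groups did not overlap, and mossy-cell libraries lay far above hippocampus (log2 fold change -3.25, SE 0.35, adjusted p = 4.39e-06). The log2 fold change was -2.47 corrected and -4.13 without granule-cell libraries 1 and 4. Npy, at chr6:49822710-49829507 on the plus strand, had 20.2, 17.6, 10.9 and 21.3 CPM in granule cells and 268, 333 and 373 CPM in mossy cells as lowest, median and highest (log2 fold change -4.23, SE 0.20, adjusted p = 2.61e-09), and -3.56 corrected. The hippocampus mean of Npy was 32.8 CPM. Both peptides are made in the hippocampus by GABAergic interneurons, and Sst is itself a member of the interneuron list. The markers of that list were mostly lower in granule cells too, and their part in these differences was not tested.

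Cck, which encodes cholecystokinin, had 347, 141, 149 and 382 CPM in granule cells and 658 to 765 CPM in mossy cells (log2 fold change -1.49, SE 0.25, adjusted p = 0.000249), and -0.67 after correction for GC content and length. Granule-cell libraries 1 and 4 held more than libraries 2 and 3 yet lay below all mossy-cell libraries. Adcyap1, which encodes the peptide PACAP, had 0.13, 3.40, 0.877 and 1.79 CPM in granule cells and 9.46 to 17.1 CPM in mossy cells (log2 fold change -3.09, and -3.81 without granule-cell library 2). Tac2, the precursor of neurokinin B, averaged 1.05 ± 0.68 CPM in granule cells and 10.1 ± 3.36 CPM in mossy cells (-3.22, and -2.57 corrected). Vgf, which encodes a secreted protein cut into several peptides, averaged 25.2 ± 10.98 CPM in granule cells and 77.7 ± 13.2 CPM in mossy cells (-1.62, and -0.79 corrected).

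Penk, Nts and Vip were the 3 peptide genes that were higher in granule cells. Penk encodes proenkephalin, the precursor of the enkephalin opioid peptides, and had 46.6, 31.2, 37.4 and 57.5 CPM in granule cells, against a lowest, median and highest value of 9.88, 12.2 and 15.3 CPM in mossy cells. The groups did not overlap (log2 fold change 1.81, SE 0.18, adjusted p = 2.45e-06). Nts, the neurotensin precursor, had 1.04, 1.36, 2.77 and 0.936 CPM in granule cells and 0.0648 to 0.705 CPM in mossy cells, also without overlap (log2 fold change 2.30, SE 0.67, adjusted p = 0.0107). Its call was lost with the replicate number as a block (adjusted p = 0.0546) and without granule-cell libraries 2 and 3 (adjusted p = 0.117). Pdyn, the precursor of dynorphin, a peptide known from mossy fibres, was near the detection limit in both cell types, with 0.39, 1.67, 3.55 and 1.71 CPM in granule cells and 0.267 to 1.52 CPM in mossy cells. It did not pass the test (log2 fold change 1.37, adjusted p = 0.0945), and did when granule-cell library 1 or mossy-cell library 1 was left out. Vip, the vasoactive intestinal peptide gene, had 11.9, 4.29, 1.55 and 6.39 CPM in granule cells and 0.736 to 3.36 CPM in mossy cells. It was called higher (log2 fold change 1.90, adjusted p = 0.00758) although the groups overlapped, and was not called without granule-cell libraries 1 and 4.

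**Figure D4:**
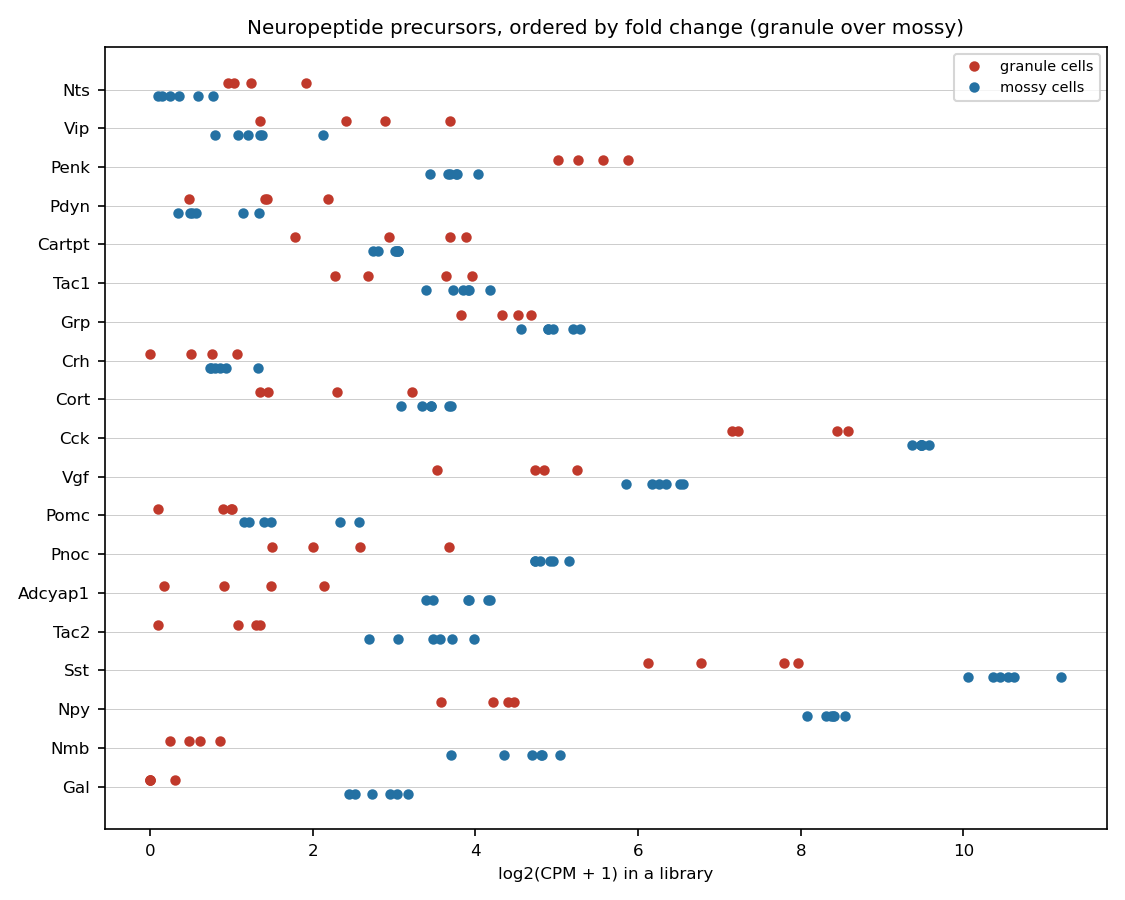
Level of the 19 tested neuropeptide precursors as log2(CPM + 1) in each library of granule cells (4) and mossy cells (6), ordered by log2 fold change, granule over mossy. Penk lies higher in granule cells, and Npy, Sst and Nmb lie lower in granule cells without overlap of the groups.

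Genes of peptide storage and processing followed the precursors in part. Of 18 tested, 11 were lower in granule cells and 1 was higher, against 24.3% and 26% of all genes tested. The median log2 fold change was -0.642. Chga, which encodes chromogranin A, a core protein of dense-core vesicles, averaged 24.2 ± 4.86 CPM in granule cells and 78.2 ± 11.01 CPM in mossy cells (log2 fold change -1.70, SE 0.16, adjusted p = 1.41e-06), and -0.93 corrected. Pcsk1n, an inhibitor of a prohormone convertase, averaged 97.1 ± 20.98 and 264 ± 41.1 CPM (-1.44, and -0.79 corrected). Qpct, the enzyme that closes N-terminal glutamine into pyroglutamate, averaged 1.56 ± 0.96 and 14.1 ± 2.16 CPM (-3.15). Cpd, a carboxypeptidase, was the member that was higher, with 45, 115, 105 and 58.2 CPM in granule cells and 42.5 to 46.8 CPM in mossy cells. It was not called after correction for GC content and length (adjusted p = 0.065). Scg2, secretogranin II, had 109, 154, 121 and 228 CPM in granule cells and 159 to 217 CPM in mossy cells, and did not pass (adjusted p = 0.132), but did without granule-cell library 4. Cpe, carboxypeptidase E, had 1760, 649, 552 and 2520 CPM in granule cells and 929 to 1207 CPM in mossy cells. Granule-cell libraries 1 and 4 lay above the mossy-cell range and libraries 2 and 3 below it, and the gene was not called (adjusted p = 0.396).

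Peptide receptors differed by member. Of 24 tested, 7 were higher and 11 were lower in granule cells, against 26% and 24.3% of all genes tested. The higher share was thus near that of all genes. Npy1r, a Gi-coupled receptor for neuropeptide Y, had 86.9, 50.0, 44.8 and 50.8 CPM in granule cells and 10.98 to 23.0 CPM in mossy cells (log2 fold change 1.63, SE 0.22, adjusted p = 3.15e-05). Npy2r, another of its receptors, which sits on axon terminals, had 100, 44.0, 35.6 and 82.2 CPM and 12.9 to 19.6 CPM (1.97). Their ligand gene Npy was thus lower in granule cells where these receptor genes were higher. The kappa opioid receptor gene Oprk1 averaged 0.42 ± 0.24 CPM in granule cells and 3.91 ± 0.94 CPM in mossy cells (-3.17). The mu opioid receptor gene Oprm1 had 1.33 ± 1.45 and 9.21 ± 2.98 CPM (-2.74, and -3.71 without granule-cell library 2), and the delta opioid receptor gene Oprd1 2.88 ± 1.21 and 11.4 ± 2.60 CPM (-1.99). Cckbr, the brain cholecystokinin receptor, averaged 3.83 ± 1.14 and 10.6 ± 0.94 CPM (-1.47), and Adcyap1r1, the PACAP receptor, was higher, with 143 ± 24.4 and 94.6 ± 13.1 CPM (0.60, adjusted p = 0.00234).

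Serotonin receptors matter here because fluoxetine, the drug of the study, blocks serotonin reuptake. Of 12 tested genes of the serotonin list, 3 were higher and 2 were lower in granule cells, a share near that of all genes, and 2 were higher and 3 were lower corrected. Htr4, a receptor that raises cAMP through Gs, had 8.51, 30.7, 21.5 and 22.7 CPM in granule cells and a lowest, median and highest value of 2.56, 3.35 and 4.42 CPM in mossy cells. Every granule-cell library lay above every mossy-cell library (log2 fold change 2.61, SE 0.31, adjusted p = 9.54e-06). Htr1a, a Gi-coupled receptor, had 25.8, 40.5, 43.1 and 38.2 CPM in granule cells and 19.4 to 22.7 CPM in mossy cells (log2 fold change 0.84, SE 0.15, adjusted p = 0.000398). Htr2a, a Gq-coupled receptor, had 3.12, 8.83, 8.33 and 4.27 CPM in granule cells and 15.4 to 21.7 CPM in mossy cells (-1.59). Htr3a, an ion channel of a class of interneurons, had 0, 8.45, 1.96 and 2.08 CPM in granule cells and 27.0 to 52.8 CPM in mossy cells (-3.64, and -4.79 without granule-cell library 2). Htr5b had 4.03, 1.80, 2.42 and 11.5 CPM in granule cells and 2.16 to 6.20 CPM in mossy cells, and did not pass (adjusted p = 0.738). Without granule-cell library 1, 4 members were called lower, and without granule-cell libraries 1 and 4, 6.

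S100a10 encodes p11, an adaptor that binds serotonin receptors and annexin A2 and has been studied in antidepressant response. It had 4.09, 10.8, 11.1 and 5.13 CPM in granule cells and a lowest, median and highest value of 20.3, 25.3 and 31.0 CPM in mossy cells (log2 fold change -1.70, SE 0.28, adjusted p = 0.000203), and -1.10 corrected. The groups did not overlap. Ahnak, a very large scaffold protein that binds the p11 complex, had 4.87, 19.9, 71.8 and 17.9 CPM in granule cells and 1.52 to 2.95 CPM in mossy cells (3.65), and 2.64 without granule-cell library 3, the library with the highest endothelial sum. Of the 4 genes of the p11 list, 2 were higher and 1 was lower, against 26% and 24.3% of all genes tested. Without any one of granule-cell libraries 2 and 3 or mossy-cell libraries 3, 5 and 6, 1 was higher.

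Among 11 tested dopamine and adrenergic receptors, 3 were higher and 4, Drd2 among them, were lower in granule cells. The shares over all genes tested were 26% and 24.3%. Drd5, the Gs-coupled D5 receptor, had 9.61, 18.3, 11.5 and 19.5 CPM in granule cells and 1.68 to 3.28 CPM in mossy cells (log2 fold change 2.70, SE 0.28, adjusted p = 2.93e-06). Drd1a, the Gs-coupled D1 receptor, had 5.41 to 7.47 CPM in granule cells and 2.05 to 6.67 CPM in mossy cells and did not pass (log2 fold change 0.70, adjusted p = 0.114), but did without mossy-cell library 4. The list counts rested on single libraries: without granule-cell library 4, 1 member was called higher and 2 lower, and 2 were called lower without mossy-cell library 1, 2, 3 or 5. Of 12 acetylcholine receptors 8 were lower and 1 was higher, against 24.3% and 26% of all genes. Chrna7, a nicotinic subunit that forms calcium-permeable channels, averaged 4.02 ± 1.99 CPM in granule cells and 19.4 ± 2.17 CPM in mossy cells (-2.25), and Chrm1, the Gq-coupled M1 muscarinic receptor, 159 ± 11.9 and 116 ± 9.24 CPM (0.46, adjusted p = 0.00199).

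Ionotropic glutamate receptor subunits differed by subunit. Gria2, the AMPA subunit that makes channels impermeable to calcium, had 725, 685, 628 and 781 CPM in granule cells and 343 to 386 CPM in mossy cells (log2 fold change 0.95, SE 0.09, adjusted p = 1.95e-06), and 0.32 after correction for GC content and length. Gria3, another AMPA subunit, averaged 282 ± 45.8 and 130 ± 7.18 CPM (1.11). Grik1, the kainate subunit GluK1, averaged 2.14 ± 1.12 CPM in granule cells and 27.7 ± 8.48 CPM in mossy cells (-3.65). Over the AMPA and kainate list, 2 of 11 genes were higher and 4 were lower, with 4 higher without granule-cell libraries 1 and 4. Of 6 NMDA subunits 2 were higher and 3 were lower, with 1 higher corrected. Besides Grin2a, the other higher subunit, not named here, had a log2 fold change of 3.04 and was the only member past 2-fold. For both lists the shares over all genes tested were 26% higher, 24.3% lower and 6.89% higher past 2-fold. Grin1, the obligatory subunit, had 84.1, 154, 181 and 113 CPM in granule cells and 234 to 325 CPM in mossy cells (-1.01, and -0.48 corrected). Grin2a averaged 145 ± 15.8 and 113 ± 11.3 CPM (0.36, adjusted p = 0.0156), and -0.13 corrected, where it was not called.

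Among 7 metabotropic glutamate receptors 1 was higher and 2 were lower, against 26% and 24.3% of all genes tested. There were 2 higher without granule-cell library 4 and 4 lower corrected. Grm2, a presynaptic Gi-coupled receptor of mossy fibres, had 42.9, 59.5, 62.8 and 21.7 CPM in granule cells and 15.6 to 27.0 CPM in mossy cells (log2 fold change 1.06, adjusted p = 0.00261). Library 4 lay within the mossy-cell range, and the call was lost without granule-cell libraries 2 and 3. Grm8, another presynaptic receptor, averaged 1.88 ± 0.65 and 9.12 ± 1.81 CPM (-2.27). Of 14 GABA receptor subunits 5 were higher and 3 were lower, against the same shares of all genes. Gabra4, an alpha subunit of extrasynaptic receptors, averaged 85.0 ± 8.73 CPM in granule cells and 32.7 ± 3.75 CPM in mossy cells (1.38, SE 0.12, adjusted p = 8.19e-07), and Gabra5 326 ± 99.6 and 141 ± 11.1 CPM (1.21). After correction, 6 members of the list were higher and 7 were lower.

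All 10 tested vesicular and membrane transporters of glutamate, GABA and zinc were called, 4 higher and 6 lower, against 26% and 24.3% of all genes. The zinc transporter gene Slc30a3, which fills mossy fibre vesicles with zinc, had 77.1, 86.0, 82.6 and 47.7 CPM in granule cells and 29.0 to 40.8 CPM in mossy cells (log2 fold change 1.18, SE 0.17, adjusted p = 4.53e-05), and 1.99 corrected. Slc17a7, the main vesicular glutamate transporter of the forebrain, had 263, 591, 403 and 287 CPM in granule cells and 515 to 652 CPM in mossy cells (-0.60, adjusted p = 0.0176). The groups overlapped, and the gene was not called without granule-cell library 4 or after correction (-0.01). The other vesicular glutamate transporters were lower in granule cells: Slc17a6 had 1.95, 3.69, 4.82 and 11.2 CPM in granule cells and 13.4 to 20.5 CPM in mossy cells (-1.58, and -2.19 without granule-cell library 4). Slc17a8 averaged 0.93 ± 0.49 and 7.27 ± 1.73 CPM (-3.01). The higher members included the astrocyte glutamate transporter Slc1a2, with 700 ± 98.9 and 254 ± 22.4 CPM (1.46) and a mean of 1030 CPM in hippocampus.

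Of 49 potassium channel genes 19 were higher and 14 were lower in granule cells, against 26% and 24.3% of all genes tested. Kcnj2, the inward rectifier Kir2.1 that holds the resting potential negative, had 46.7, 36.9, 25.5 and 24.0 CPM in granule cells and 2.20 to 5.24 CPM in mossy cells (log2 fold change 3.08, SE 0.26, adjusted p = 4.51e-07). Kcnip2, a subunit of A-type channels, averaged 179 ± 37.4 and 73.0 ± 7.17 CPM (1.30), whereas its relative Kcnip1 averaged 13.4 ± 7.31 CPM in granule cells and 63.9 ± 6.48 CPM in mossy cells (-2.27). Kcna3, a delayed rectifier, averaged 1.43 ± 1.14 and 12.6 ± 2.43 CPM (-3.08, and -2.27 corrected). Of 33 sodium, calcium and HCN channel genes 7 were higher and 16 were lower, against the same shares of all genes. Cacna2d2, a calcium channel subunit, had 10.7, 5.45, 12.9 and 8.67 CPM in granule cells and 67.6 to 104 CPM in mossy cells (-3.06, SE 0.23, adjusted p = 1.74e-07), and the T-type channel gene Cacna1g averaged 10.5 ± 2.86 and 33.8 ± 4.77 CPM (-1.69). The hippocampus mean of Cacna2d2 was 11.5 CPM. Scn8a, the sodium channel Nav1.6 of the axon initial segment, was higher, with 402 ± 73.6 and 211 ± 5.36 CPM (0.93).

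Of 19 genes of calcium-binding proteins, calbindin among them, 13 were lower and 4 were higher in granule cells, against 24.3% and 26% of all genes. Necab1, a neuronal EF-hand protein, had 58.7, 58.8, 58.4 and 68.1 CPM in granule cells and a lowest, median and highest value of 375, 443 and 461 CPM in mossy cells (log2 fold change -2.84, SE 0.11, adjusted p = 8.59e-10). The hippocampus mean of Necab1 was 82.5 CPM. Ncald, which encodes neurocalcin delta, averaged 749 ± 28.6 CPM in granule cells and 372 ± 28.9 CPM in mossy cells (1.01). Among 20 adenylyl cyclases and phosphodiesterases, which make and break down cyclic nucleotides, 7 were higher and 6 were lower, against the same shares of all genes. Adcy1, a cyclase driven by calcium and calmodulin, had 608, 781, 582 and 583 CPM in granule cells and 158 to 199 CPM in mossy cells (1.79, SE 0.11, adjusted p = 4.37e-08). Pde7b, a phosphodiesterase specific for cAMP, averaged 71.9 ± 31.9 and 10.6 ± 1.67 CPM (2.76).

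Of 41 neuronal transcription factors 19 were higher in granule cells, 11 of them past 2-fold, and 10 were lower. The shares over all genes tested were 26%, 6.89% and 24.3%. Besides Prox1 and Rfx3, Bcl11b, a zinc finger factor needed for granule cell differentiation in mice, averaged 244 ± 57.7 CPM in granule cells and 54.0 ± 4.22 CPM in mossy cells (log2 fold change 2.17). Klf9, a factor induced by glucocorticoid and thyroid hormone, averaged 307 ± 34.2 and 72.1 ± 4.99 CPM (2.09, SE 0.10, adjusted p = 4.86e-09), and Nfia, which also acts in astrocytes, 264 ± 30.3 and 58.2 ± 13.4 CPM (2.18). Lower members included Nr2f2, a nuclear receptor known from interneurons, with 35.3 ± 2.18 CPM in granule cells and 94.7 ± 5.67 CPM in mossy cells (-1.42), and the chromatin organiser Satb1, with 103 ± 20.2 and 299 ± 15.8 CPM (-1.53).

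Axon guidance genes were divided, with 10 of 50 higher and 14 lower, close to the background of all genes. Sema5a, a semaphorin that limits excitatory synapses on granule cells in mice, had 546, 370, 339 and 456 CPM in granule cells and 70.6 to 118 CPM in mossy cells (log2 fold change 2.17, SE 0.16, adjusted p = 1.57e-07). The semaphorin coreceptor gene Nrp1 averaged 90.2 ± 8.96 and 30.7 ± 2.95 CPM (1.55), and the Eph receptor gene Epha7 280 ± 84.3 and 84.4 ± 4.66 CPM (1.73). Robo1, a receptor for Slit proteins, was lower, with 34.6 ± 7.87 CPM in granule cells and 72.1 ± 6.24 CPM in mossy cells (-1.06). Of 25 cadherins and protocadherins, which mediate adhesion between cells, 7 were higher and 6 were lower, near the 26% and 24.3% of all genes tested, and 9 were lower corrected. Pcdh20 averaged 144 ± 15.0 and 41.5 ± 3.37 CPM (1.80), and Cdh4 4.21 ± 1.27 and 18.3 ± 4.56 CPM (-2.11).

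Genes of synaptic vesicles and their release were mostly lower in granule cells, 20 of 34 against 7 that were higher. The shares over all genes tested were 24.3% and 26%. The median log2 fold change of the list was -0.69 (-0.642 corrected). Rab3b, a vesicle GTPase, had 47.1, 40.2, 56.6 and 58.1 CPM in granule cells and a lowest, median and highest value of 347, 408 and 471 CPM in mossy cells (log2 fold change -3.04, SE 0.15, adjusted p = 3.17e-09). The hippocampus mean of Rab3b was 65.3 CPM. Complexins, which clamp and trigger vesicle fusion, differed by member. Cplx1, known mainly from inhibitory neurons, averaged 440 ± 49.7 CPM in granule cells and 1363 ± 134 CPM in mossy cells (-1.63), and Cplx2, known mainly from excitatory neurons, 1980 ± 320 and 1177 ± 119 CPM (0.75, adjusted p = 0.000125). Synpr, which encodes synaptoporin, a vesicle protein of mossy fibre terminals, averaged 139 ± 29.2 and 69.7 ± 6.27 CPM (1.0, adjusted p = 3.33e-05). The opposite signs of Cplx1 and Cplx2 stand beside the lower interneuron markers in granule cells, whose part was not tested.

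Neurotrophins and growth factors were split, with 8 of 16 higher and 6 lower in granule cells, against 26% and 24.3% of all genes tested. Bdnf, brain-derived neurotrophic factor, which granule cells store in mossy fibres, had 43.5, 60.5, 61.3 and 58.1 CPM in granule cells and 16.7 to 24.4 CPM in mossy cells (log2 fold change 1.47, SE 0.15, adjusted p = 2.4e-06). Ntf3, neurotrophin-3, had 15.7, 16.1, 14 and 18.9 CPM in granule cells and 1.36 to 1.91 CPM in mossy cells (3.34, SE 0.22, adjusted p = 6.25e-08). Igf1, insulin-like growth factor 1, was lower, with 6.19 ± 3.92 CPM in granule cells and 36.3 ± 6.07 CPM in mossy cells (-2.57, and -3.19 corrected), and Nrg1, a ligand of ErbB receptors, 2.93 ± 0.76 and 13.2 ± 1.34 CPM (-2.16).

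Of 23 activity-regulated genes 9 were higher and 2 were lower in granule cells, against 26% and 24.3% of all genes tested. Inhba, a subunit of activin, had 15.6, 7.16, 9.69 and 21.6 CPM in granule cells and 0.401 to 1.24 CPM in mossy cells (log2 fold change 3.99, SE 0.40, adjusted p = 2.44e-06), and Btg2, an antiproliferative immediate early gene, averaged 38.0 ± 11.95 and 4.33 ± 1.41 CPM (3.13). Nr4a3, an orphan nuclear receptor, was lower, with 19.5 ± 3.94 CPM in granule cells and 54.4 ± 4.35 CPM in mossy cells (-1.47). Fos, the classical immediate early gene, had 2.47, 8.73, 3.48 and 4.88 CPM in granule cells and 2.43 to 6.35 CPM in mossy cells and did not pass (log2 fold change 0.28, adjusted p = 0.569). Of 13 genes of the glucocorticoid list, 8 were higher and none was lower, against the same shares of all genes. However, 2 members were called lower without granule-cell libraries 2 and 3. Nr3c1, the glucocorticoid receptor, had 101, 88.5, 104 and 60.0 CPM in granule cells and 29.0 to 49.3 CPM in mossy cells (1.16, SE 0.17, adjusted p = 7.3e-05). Nr3c2, the mineralocorticoid receptor, averaged 132 ± 53.5 and 53.7 ± 4.61 CPM (1.29), and Fkbp5, a cochaperone that dampens the receptor and is induced by it, 70.3 ± 1.40 and 36.7 ± 3.27 CPM (0.94). Glia also carry these receptors.

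Genes of the respiratory chain were lower in granule cells. Of 73 nuclear-encoded oxidative phosphorylation genes 48 were lower, 12 of them past 2-fold, and 2 were higher. The shares over all genes tested were 24.3% lower, 5.8% lower past 2-fold and 26% higher. The median log2 fold change of the list was -0.738. After correction for GC content and length 35 were lower and 6 were higher, and the median was -0.276. Over all 14674 genes the corrected fit called 3015 lower and 3654 higher. Uqcr11, a small subunit of complex III, averaged 115 ± 13.9 CPM in granule cells and 430 ± 61.4 CPM in mossy cells (-1.90, SE 0.13, adjusted p = 1.09e-07), and -0.88 corrected. Sdha, the flavoprotein of complex II, was one of the pair that was higher, with 427 ± 46.2 and 335 ± 32.0 CPM (0.35, adjusted p = 0.0155). Without granule-cell library 1 or 4, 1 member was called higher, and without libraries 2 and 3, 7.

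The cytosolic ribosomal protein genes had no common direction: 17 of 78 were higher and 17 were lower, against 26% and 24.3% of all genes tested. Their median log2 fold change was -0.0595. After correction 42 were higher and 4 were lower, with a median of 0.408, so the direction of this list depended on the correction. Over all 14674 genes the corrected fit called 3654 higher and 3015 lower. Without granule-cell libraries 1 and 4, 42 were lower, against 4414 of all 15403 genes. Without libraries 2 and 3, 35 were higher, against 3933 of all 15169 genes. The higher count fell to 10 without granule-cell library 4, and the lower count was 11 without mossy-cell library 5. Rpl36 averaged 118 ± 15.6 CPM in granule cells and 245 ± 32.5 CPM in mossy cells (-1.06, and 0.06 corrected), and Rpl22 104 ± 23.8 and 58.7 ± 2.21 CPM (0.83).

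Of 20 lysosomal protein genes 10 were lower and 3 were higher in granule cells, against 24.3% and 26% of all genes tested. Ctsd, the protease cathepsin D, averaged 63.9 ± 13.4 CPM in granule cells and 170 ± 23.5 CPM in mossy cells (log2 fold change -1.41), and Gaa, the lysosomal enzyme that breaks down glycogen, 116 ± 13.4 and 343 ± 35.5 CPM (-1.56, SE 0.12, adjusted p = 2.15e-07), and -0.94 corrected. Of 12 heat shock chaperones 5 were lower and 1 was higher, or 2 without granule-cell library 2, against the same shares of all genes. After correction 8 were lower. Hspa8, the constitutive Hsp70, had 1020, 1390, 2110 and 1620 CPM in granule cells and 2691 to 3069 CPM in mossy cells (-0.90, SE 0.16, adjusted p = 0.000317).

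**Figure D5:**
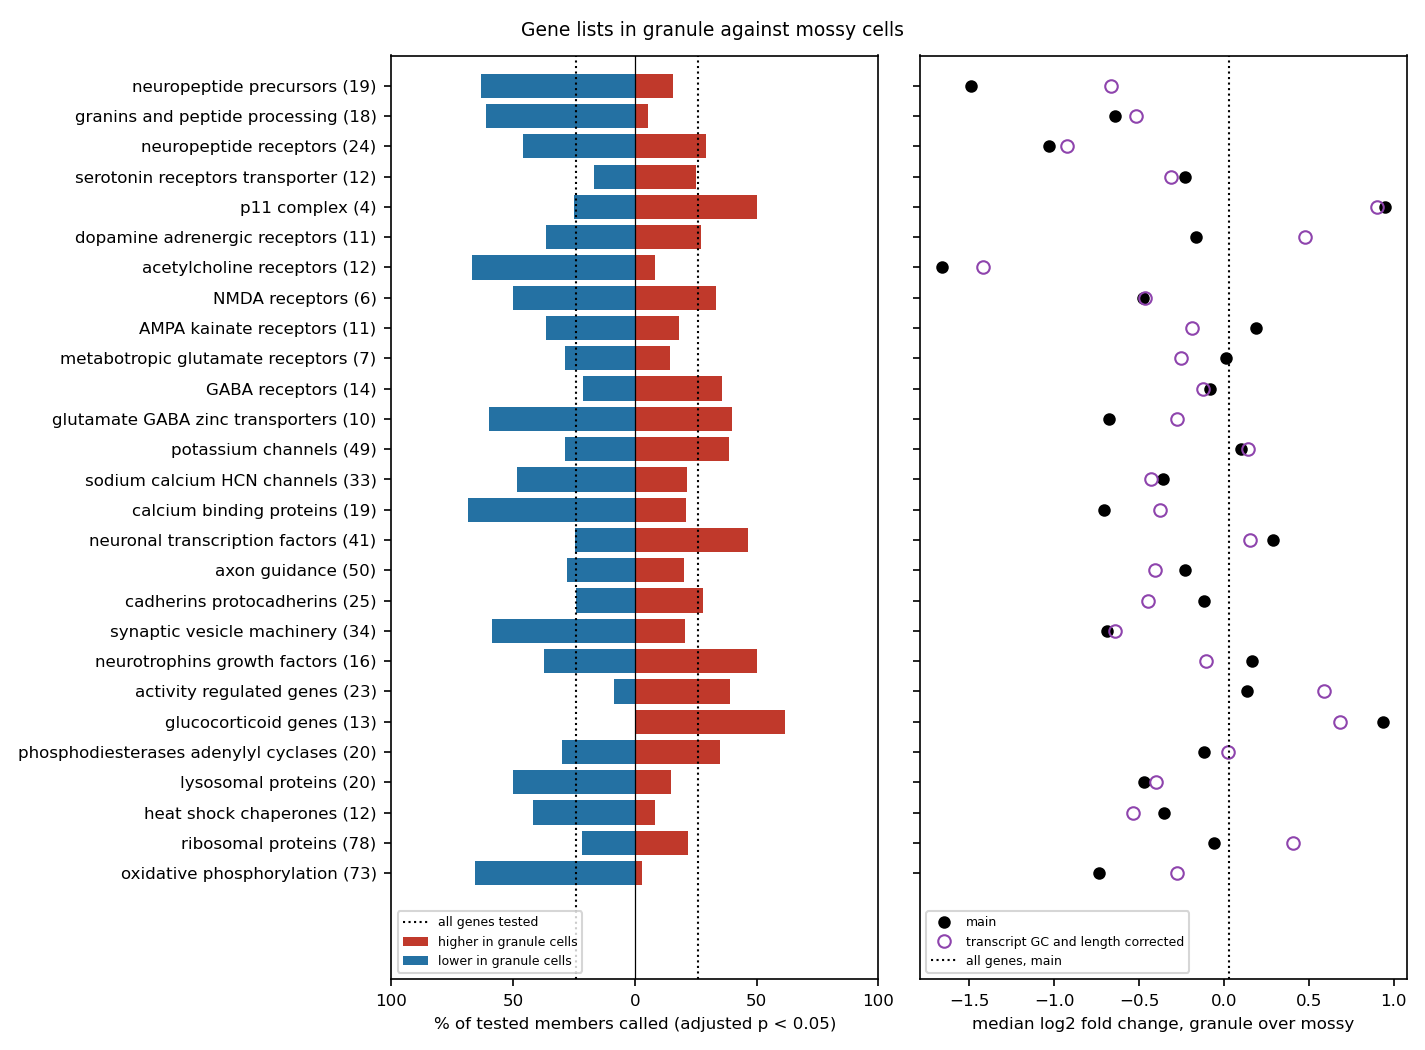
Left, percent of the tested members of 27 gene lists called higher (red, to the right) or lower (blue, to the left) in granule cells at an adjusted p under 0.05, with dotted lines at 26% and 24.3% for all genes tested and the number of tested members in parentheses. Right, median log2 fold change, granule over mossy, before (filled) and after (open) correction for transcript GC content and length; the ribosomal protein median is -0.0595 before and 0.408 after it.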

How the data were processed

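RNA was measured in 34 libraries, of which 10 enter the comparison and 6 vehicle hippocampus libraries give context. Per the labels' protocols, TRAP RNA was purified on a micro column, cDNA was amplified from 500 pg, and sequencing gave 50 bp paired reads. The submitters' processing notes name the GRCm38 build, HTSeq 0.7.2, STAR 2.5.2b and edgeR. The annotation, the strand setting and the treatment of multiply mapped reads are not given in the sources used here. The deposited values are counts per gene symbol, which the authors provide as raw counts in a table per source, joined on 24485 symbols. Of these, 22753 matched GENCODE M21 directly and 920 through 1 synonym, for positions, length and GC content (97.7% of the genes tested). Totals of 14.1 to 40.0 M counts set the precision, and counts include PCR duplicates and so are not independent molecules.

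The 4 granule-cell and 6 mossy-cell libraries were fitted with edgeR 4.0.16 in R 4.3.3 (TMM, filterByExpr, glmQLFit, glmQLFTest, two-sided), with Benjamini-Hochberg adjustment over all genes tested and a threshold of 0.05. Changes beyond 2-fold were tested with glmTreat at a log2 fold minimum of 1. "Higher" and "lower" of a list mean called members. Means are given ± SD over 4 granule-cell and 6 mossy-cell libraries. A value in parentheses after a pair of levels is the log2 fold change, granule over mossy.

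The members, the 38 gene lists and the tests were chosen with earlier results of these data known. Genes were named by rule: in each direction the 12 largest changes past 2-fold whose average log2 CPM reached 3, whose groups did not overlap and whose sign held whichever library was left out (clones and predicted genes aside), and up to 3 called members of each list in each direction by smallest p, plus 25 genes always. Not every gene taken has its values in the text, and some items withheld for evaluation are not reported here. Dsp, Tdo2, C1ql2, Trpc6, Gal, Gfap, Ttr, Malat1, Meg3, Tac2, Scg2, Pcsk1n, Qpct, Cpe, Oprm1, Adcyap1r1, Gabra5, Kcna3, Bcl11b, Nfia, Cplx2, Fos and Fkbp5 lie outside the rule and were chosen after their values were seen. Alternatives changed scaling, filter, test (DESeq2 1.42.0, limma 3.58.1), replicate block, depth, composition and libraries.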

Additional observations from a re-analysis of the deposited data

Results flagged for a closer look

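In 16 of 282 sets of libraries, 1 per gene and cell type over 141 genes, the highest or lowest library lay far from the rest of its group by Dixon's test at the 95% level, where chance gives about 1 in 20. Granule-cell library 3 was the highest for Flt1 at 44.1 CPM, Slco1a4 at 45.7 CPM, Bcor at 437 CPM and Gal at 0.231 CPM, against at most 7.88, 6.37, 269 and 0 CPM in the other granule-cell libraries. Granule-cell library 1 was the highest for Fign at 101 CPM, Npy1r at 86.9 CPM and Kcnip2 at 235 CPM, against at most 14.5, 50.8 and 162 CPM. It was the lowest for Slc32a1 at 3.12 CPM, against at least 16.6 CPM. Granule-cell library 4 was the highest for Necab1 at 68.1 CPM, against at most 58.8 CPM, and library 2 for Adcy1 at 781 CPM, against at most 608 CPM.

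Mossy-cell library 1 was the highest for Grik1 at 44.9 CPM and Cacna2d2 at 104 CPM, against at most 25.4 and 80.3 CPM, and the lowest for Necab1 at 375 CPM, against at least 440 CPM. Mossy-cell library 5 was the highest for Vip at 3.36 CPM, against at most 1.59 CPM, and the lowest for Nr3c2 at 45.2 CPM, against at least 53.3 CPM. Mossy-cell library 2 was the highest for Klf9 at 81.4 CPM, against at most 72.7 CPM.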

How the results depend on the processing

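Depth limits genes at a few CPM, above all in granule-cell library 1, and cell type cannot be separated from library set. Over 25 alternatives, 120 of the 134 genes in the text that were called stayed called in the same direction in every alternative that gave an adjusted p. The others were Cpd, Flt1, Gria2, Grin2a, Grm2, Nts, Ociad2, Pcp4, Rpl36, Sdha, Slc17a7, Slco1a4, Synpr and Vip, each of which missed the threshold in at least 1. Most of these genes were named for small p or large changes. Of the 7387 calls over all genes, 5200 were also called with the replicate block, 5289 with the correction for GC content and length and 3983 with both. Counts for higher, lower, higher past 2-fold and lower past 2-fold were 3821, 3566, 1011 and 851. Leaving out each library gave 3430 to 3962, 3210 to 3817, 900 to 1087 and 720 to 1026. Lower genes past 2-fold were 500 with limma-voom and quality weights, 523 with correction for transcript GC content and length, and, chosen after seeing the data, 1561 without granule-cell libraries 2 and 3. Replicate numbers in the labels did not pair the samples (correlations of deviations -0.0671, 0.0169, -0.0249 and -0.0104). With the replicate number as a block, 2448 genes were higher, 2780 lower, 612 higher past 2-fold and 604 lower past 2-fold. By design, mossy-cell libraries 5 and 6 have no granule-cell library of the same number and add nothing to that contrast. The block terms also leave fewer degrees of freedom for the spread. With the replicate block and the GC content and length correction, also chosen later, the counts were 2314, 2227, 550 and 365. The causes were not tested.

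Signs reversed for 7 genes. With limma-voom the log2 fold change was -0.44 for Cpe and -0.54 for Htr5b. With the GC content and length correction it was -0.13 for Grin2a and 0.057 for Rpl36, and with the block added -0.14 for Grin2a and 0.077 for Rpl36. Without granule-cell library 4 it was -0.13 for Cpe and -0.65 for Htr5b, and without library 2 -0.095 for Ttr and -0.16 for Fos. Over all fits that left out 1 library, values ran from -0.13 to 0.61 for Cpe, -0.65 to 0.49 for Htr5b, -0.095 to 1.92 for Ttr and -0.16 to 0.49 for Fos. Without granule-cell libraries 1 and 4 it was -0.090 for Ociad2, -0.85 for Cpe and -1.01 for Htr5b, and without libraries 2 and 3 -0.13 for Fos.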
